A study of Mus musculus with 2 samples.

Results

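The genes described here are the chains of the interleukin 2 (IL-2) receptor, the kinases JAK1 and JAK3 that it carries, and the transcription factors STAT5A and STAT5B that they activate, in mouse regulatory T cells. The 7 genes Il2ra, Il2rb, Il2rg, Jak1, Jak3, Stat5a and Stat5b were listed by name and found by their gene identifiers among 55536 annotated genes of the GENCODE M21 annotation, whatever their level. All 7 were found, together with their 32 annotated transcripts.

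Regulatory T cells hold other immune cells in check, and the transcription factor Foxp3 is needed for their identity. They make little IL-2 themselves and take it up from other T cells. Their receptor joins the alpha chain (CD25, from Il2ra), which raises the affinity for the cytokine, to the beta chain (CD122, from Il2rb) and the common gamma chain (from Il2rg), which is also used by the receptors for several other interleukins. JAK1 is bound to the beta chain and JAK3 to the gamma chain. On binding of IL-2 they phosphorylate the receptor, STAT5A and STAT5B dock there, are phosphorylated in turn, pair and move to the nucleus, where Foxp3 and Il2ra are among the known targets.

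RNA-seq of polyA-selected RNA was made from the regulatory T cells of 1 adult male mouse, 4 months old, of a strain that combines the alleles Foxp3CreERT2 and Rosa26YFP. In such mice a Cre recombinase that needs tamoxifen is made under the control of Foxp3, and the Rosa26 allele is a reporter. The labels name no treatment, sort or gate and give a bone marrow haematopoietic cell as the origin of the cells. There is 1 group, made of 2 technical replicates of 1 biological sample, called library 1 and library 2 below, so no condition is compared.

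Library 1 held 15821875 estimated counts on annotated genes and library 2 held 16153671. Levels are in TPM, transcript numbers scaled for length and for the library total, so that genes can be set beside each other. Means are followed by ± SD of the 2 libraries (n = 2), which covers technical variation only. Genes at or above 1 TPM in each library counted as expressed. There were 10251 such protein-coding genes, with a median of 18.5 TPM. The label was checked against marker genes. All 5 markers of regulatory T cells were expressed, from Foxp3 at 39.7 ± 4.91 TPM to Izumo1r at 1008 ± 21.3 TPM, as were all 5 general T cell markers. None of the 4 B cell, 5 myeloid or 4 dendritic cell markers reached 1 TPM in both libraries. The dendritic cell marker Itgax was listed at 0 in both. The summed level of the B cell markers was 1.94 and 2.00 TPM, that of the myeloid markers 1.46 and 2.13 TPM and that of the dendritic cell markers 0.53 and 1.14 TPM. Of 4 NK cell markers 1 was expressed, Klrb1c at 1.91 ± 0.08 TPM, while Klra8 was listed at 0. Cd8a stood at 2.00 ± 0.25 TPM and Cd8b1 at 12.6 ± 2.51 TPM beside Cd4 at 213 ± 19.1 TPM. CD8 T and NK cells also use Il2rb, Il2rg, the JAKs and STAT5, and their part in the levels below was not tested. In bulk RNA, fewer cells of a type and less RNA per cell cannot be told apart.

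All 7 genes were expressed in both libraries, and by TPM they fell into a high and a low group. The 3 receptor chains and Jak1 stood between 266 and 1486 TPM, at ranks 77 to 415 of the 10251 expressed coding genes, whereas Stat5b, Stat5a and Jak3 stood between 16.9 and 30.7 TPM, close to the median coding gene. The lowest gene of the high group, Il2ra, was 8.67-fold above the highest of the low group, Stat5b. In a smaller gene table of the same libraries, described further on, the groups nearly met. There Il2rg had 742 and 734 counts and Jak3 683 and 607, not divided by length. The 3 receptor chains together reached 2162 ± 31.7 TPM and both Stat5 genes together 58.2 ± 1.24 TPM. The 7 genes held 0.477% of all estimated counts in library 1 and 0.465% in library 2.

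**Figure D1:**
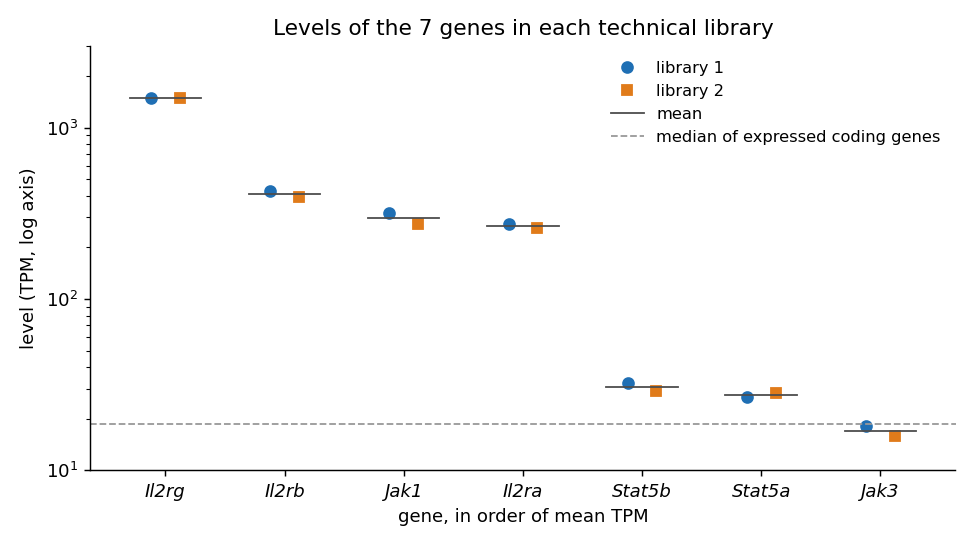
Level in TPM (log axis) of the 7 genes in library 1 (circles) and library 2 (squares), with the mean of both as a line and the median of expressed protein-coding genes (18.5 TPM) dashed. Il2rg stands highest at 1486 TPM, the receptor chains and Jak1 lie far above the dashed line, and Jak3, at 16.9 TPM, lies just under it.

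Il2rg, the common gamma chain gene (ENSMUSG00000031304.18, mm10 chromosome X, 101264378 to 101268255, minus strand), had the highest level of the 7. It stood at 1484.5 TPM in library 1 and 1488.2 TPM in library 2, from 27096 and 28857 estimated counts, and its rank among expressed coding genes was 77. The libraries hardly differed on this scale. The whole gene lies inside Gm20489, an annotated protein-coding gene on the same strand, and 27.5% of the 50-base windows of Il2rg transcripts also occur in transcripts of Gm20489. Gm20489 itself was given 1.5 and 5.26 estimated counts, so that nearly all of the shared reads were assigned to Il2rg.

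Il2rb, the beta chain gene (ENSMUSG00000068227.9, chromosome 15, 78479256 to 78495271, minus strand), stood at 426 and 394 TPM, from 17291 and 17135 counts. Il2ra, the alpha chain gene (ENSMUSG00000026770.5, chromosome 2, 11642807 to 11693193, plus strand), stood at 274 and 258 TPM, from 11994 and 11526 counts. The chains therefore had the order gamma, beta, alpha in both libraries, with no overlap on this scale. Il2rg was 3.63 ± 0.21-fold above Il2rb by TPM, and Il2rb was 1.54 ± 0.02-fold above Il2ra. By counts not divided by length, Il2rg was 1.63-fold above Il2rb and 2.38-fold above Il2ra. In the smaller gene table, whose counts are not per length either, Il2rg had 0.246-fold the counts of Il2rb and 0.528-fold those of Il2ra. The direction of both ratios thus turned between the tables on a like scale. Il2rb shares no 50-base window with another gene and Il2ra 1.10% of its windows. These ratios are between RNA levels and say nothing of the chains on the cell surface.

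The kinase genes were far apart. Jak1 (ENSMUSG00000028530.14, chromosome 4, 101152367 to 101265282, minus strand), whose product serves many cytokine receptors, stood at 318 and 275 TPM, from 15128 and 13539 counts. Jak3 (ENSMUSG00000031805.17, chromosome 8, 71676296 to 71690575, plus strand), whose product binds the common gamma chain, stood at 18.0 and 15.8 TPM, from 871 and 799 counts. Jak1 exceeded Jak3 17.5 ± 0.16-fold, and the RNA of the gamma chain exceeded that of its kinase Jak3 88.4 ± 8.52-fold by TPM. By counts not divided by length these ratios were 17.1-fold and 33.6-fold in the same table, and 7.50-fold and 1.15-fold in the smaller gene table. Jak3 was the lowest of the 7, with 47.3% of expressed coding genes at or below it. The 3′ part of Jak3 overlaps Insl3 on the same strand over 1362 bases, and 6.93% of its windows occur in other genes, mostly Insl3, which was given 168 and 137 counts. Jak1 shares no window.

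The Stat5 genes stood close together. Stat5b (ENSMUSG00000020919.11, chromosome 11, 100780731 to 100850724, minus strand) was at 32.2 and 29.2 TPM, from 1890 and 1908 counts. Stat5a (ENSMUSG00000004043.14, chromosome 11, 100859351 to 100885169, plus strand) was at 26.9 and 28.2 TPM, from 1229 and 1306 counts. Stat5b was higher in both libraries, by 1.20-fold in library 1 and 1.04-fold in library 2. The credible intervals deposited with the values overlapped in both libraries. In library 1 they ran from 26.7 to 30.8 TPM for Stat5b and from 23.2 to 27.0 TPM for Stat5a, around posterior means that lie below the TPM given above. The intervals thus did not separate the Stat5 genes at this depth. The level of these intervals is not given in the sources used here, and they cover counting and assignment error only.

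Among the other neighbours in the order, Jak1 and Il2ra came nearest to each other. The lower library of Jak1, at 274.53 TPM, lay just above the higher library of Il2ra, at 273.73 TPM. Within each library Jak1 was the higher, by 1.16-fold in library 1 and 1.06-fold in library 2, and the deposited intervals did not overlap. Il2rb exceeded Jak1 1.39-fold, and Stat5a exceeded Jak3 1.64-fold, with no overlap between libraries and intervals apart in both.

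The reads of Stat5a and Stat5b are partly interchangeable, because the genes are near copies of each other. They lie 8626 bases apart and are transcribed away from each other. Their coding sequences, of 2379 bases in Stat5a-202 and 2358 bases in Stat5b-202, align over 2343 bases, of which 90.7% are identical. The longest identical run has 324 bases, coding bases 571 to 894 of both, and covers exon 8 of Stat5a-202 and exon 7 of Stat5b-202 whole. That exon is shown because no read inside it can be told from the other gene by sequence. It has 152 bases, coding bases 682 to 833, at chr11:100874339-100874490 on the plus strand in Stat5a and at chr11:100798234-100798385 on the minus strand in Stat5b (GRCm38, the assembly of the mm10 files). Capitals mark bases identical in both genes, here all of them.
Stat5a exon 8 and Stat5b exon 7: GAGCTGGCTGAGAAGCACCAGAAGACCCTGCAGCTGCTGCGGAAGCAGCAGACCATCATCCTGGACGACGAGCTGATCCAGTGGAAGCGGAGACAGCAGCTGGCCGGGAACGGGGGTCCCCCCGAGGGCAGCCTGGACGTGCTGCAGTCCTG
In all, 608 windows of 50 bases occur in both genes, which is 8.21% of the windows of Stat5a transcripts and 11.0% of those of Stat5b. The deposited estimated counts split reads from such windows between the genes by a model. The sum of their counts does not depend on that split.

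Each gene was led by the same transcript in both libraries, by TPM and by estimated count. Il2ra-201, the transcript with the whole coding sequence of 268 codons, took 76.5% (library 1) and 73.5% (library 2) of the TPM of its gene. Il2ra-202, which ends early and carries 44 codons, held 15.4% and 19.1%. By estimated count the shorter transcript held 4.22% and 5.38%, so most of its share comes from the division by its length. Counting only transcripts that keep at least 95% of the longest coding sequence, Il2ra stood at 200 ± 13.9 TPM, and Il2rb, both of whose transcripts encode the same protein, stood at 409.96 ± 23.2 TPM.

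Il2rb-201 held 61.6% and 65.0% of Il2rb TPM and Il2rb-202 the remaining 38.4% and 35.0%. They differ outside the coding sequence, and 92 windows, 4.98% of those of Il2rb-202, occur in that transcript alone. Il2rg-201 held 83.6% and 85.0% of Il2rg TPM. The other 3 Il2rg transcripts lack the whole coding sequence and each stayed under 10%.

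Jak1-201 held 75.0% and 74.0% of Jak1 TPM. Jak1-208, a processed transcript without a coding sequence, held 9.53% and 11.7%, although none of its 622 windows is absent from the other Jak1 transcripts. Counted over the transcript with the whole coding sequence alone, Jak1 stood at 239 and 203 TPM and Il2ra at 209 and 190 TPM, so their libraries then overlapped. Jak3-201 held 63.6% and 64.1% of Jak3 TPM and Jak3-202 33.1% and 32.9%. Both encode the same protein, as does Jak3-203, which was given 0 in both libraries and has no window of its own. Transcripts with the whole coding sequence made up 96.9 ± 0.23% of Jak3 TPM.

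**Figure D2:**
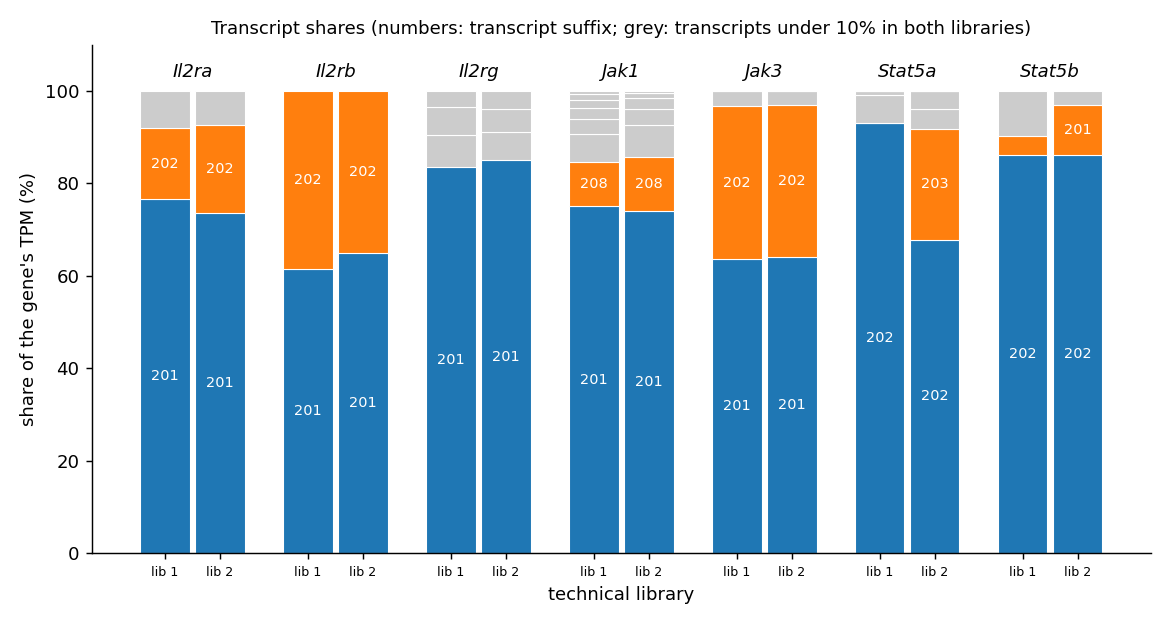
Share of each gene's TPM (percent) given to its transcripts in library 1 and library 2, with the transcript's number inside each part and transcripts under 10% in both libraries in grey. The parts have nearly the same height in both libraries except in Stat5a, where transcript 202 takes 93.0% in library 1 and 67.9% in library 2, and in the small parts of Stat5b.

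Stat5a had the least stable assignment. Stat5a-202 held 93.0% of its TPM in library 1 and 67.9% in library 2, a gap of 25.2 points. Stat5a-203, which starts 828 bases further downstream, was given 0 in library 1 and 23.9% in library 2. Of the 3556 windows of Stat5a-203 only 49 occur in no other Stat5a transcript. Its deposited interval ran from 0.90 to 10.8 TPM in library 2 and from near 0 to 5.12 TPM in library 1, so the 2 intervals overlap. The median gap over the 13 listed transcripts of the 7 genes was 2.98 points. Both Stat5a transcripts keep at least 95% of the longest coding sequence, and such transcripts together made up 92.4 ± 0.88% of Stat5a TPM.

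Stat5b was led by the transcript that starts inside the gene. Stat5b-202 held 86.2% of Stat5b TPM in both libraries, with 1783 and 1695 estimated counts. Stat5b-201, which starts 28196 bases further upstream, held 4.02% and 10.8%, and Stat5b-203, a short noncoding transcript from the upstream start region, held 9.80% and 3.00%. The 2 coding transcripts have the same coding sequence and start with different exons. Their difference rests on 475 windows found in Stat5b-202 and not in Stat5b-201, and on 324 found in Stat5b-201 and not in Stat5b-202. Of the windows of Stat5b-201, 186 (3.71%) occur in no other Stat5b transcript. Stat5b-201 and Stat5b-203 traded places between the libraries, and no order is read between them.

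**Figure D3:**
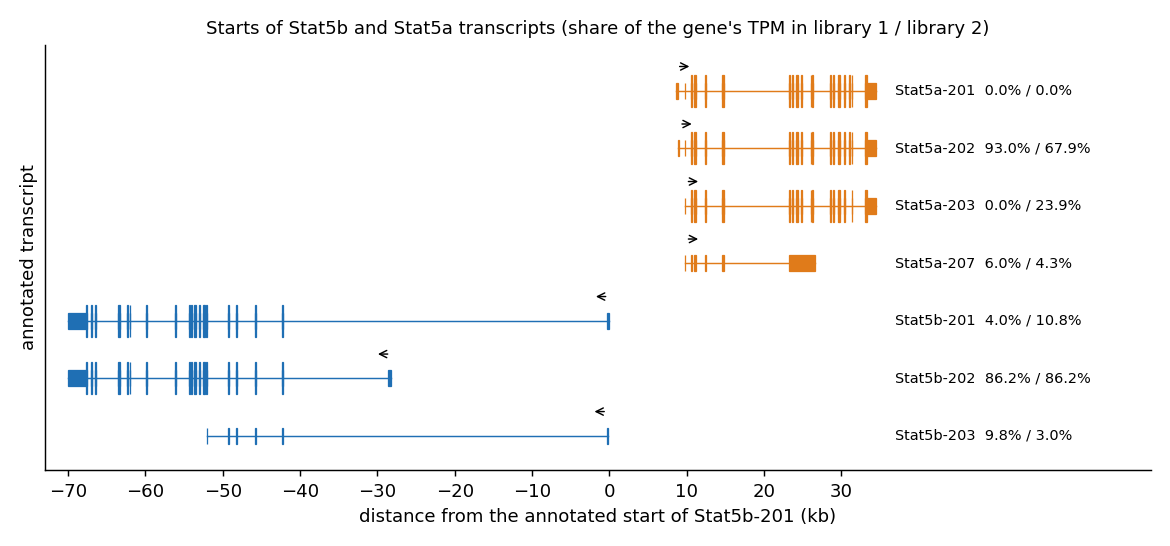
Annotated transcripts of Stat5a (orange, running right) and Stat5b (blue, running left) by distance in kb from the start of Stat5b-201, with noncoding exon parts thin, coding parts tall, narrow exons drawn with a minimum width, arrows at the starts and the share of the gene's TPM in each library at the right. Stat5b-202, at 86.2% in both libraries, starts inside the gene, 28196 bases from the start of Stat5b-201. Stat5a-202 and Stat5a-203 start 828 bases apart.

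The sequence just before the inner Stat5b start resembles that before the downstream Stat5a start. RefSeq windows of 250 bases before a start (GRCm38.p6) were at hand for 6 of the 7 genes, 8 windows in all. RefSeq and GENCODE starts can differ. The RefSeq start of the inner Stat5b window lies 42 bases upstream of the GENCODE start of Stat5b-202. The largest distance to the nearest GENCODE start was 87 bases, for Jak3, and the Jak1 window lies nearest to the start of Jak1-203, not of Jak1-201. Between the window of the Stat5a start that gives Stat5a-203 and that of the inner Stat5b start, 90 bases aligned with 74 identical (82.2%) and 3 gaps. The block ended 11 and 2 bases before the respective RefSeq start. The last 30 bases of the aligned block are shown because they carry the likeness with no gap. They lie at chr11:100860443-100860472 on the plus strand in Stat5a and at chr11:100822573-100822602 on the minus strand in Stat5b, and capitals mark the 27 bases that are identical.
Stat5a downstream start: CCTTTgAGgAGGAAATCGCTGCTCTcTGCT
Stat5b inner start: CCTTTtAGaAGGAAATCGCTGCTCTtTGCT
The whole Stat5b window, chr11:100822571-100822820 on the minus strand, lies within the first intron of Stat5b-201, and capitals mark its aligned block of 92 bases.
Stat5b inner window: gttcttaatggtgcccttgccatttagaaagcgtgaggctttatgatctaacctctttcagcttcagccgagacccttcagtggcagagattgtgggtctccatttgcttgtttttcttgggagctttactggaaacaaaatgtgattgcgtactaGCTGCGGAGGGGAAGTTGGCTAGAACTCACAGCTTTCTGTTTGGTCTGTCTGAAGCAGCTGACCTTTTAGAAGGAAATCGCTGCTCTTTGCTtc
Of the 6 pairings of the 4 Stat5 windows, the only longer alignment joined the downstream Stat5a window to the upstream Stat5b window, 141 bases with 75.2% identical and 12 gaps, where both windows are rich in G and C (68.0% and 82.0%). The inner Stat5b window has 46.4% G and C, against a median of 52.4% over all 32851 windows.

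Motifs were counted in the 8 windows on both strands. The STAT motif TTCNNNGAA was found in none of them and in 7.02% of all windows of that length. CAGCTG, an E-box, was the only one of the 5 motifs counted that was in both the downstream Stat5a window and the inner Stat5b window. It was in no other of the 8 and in 13.0% of all windows. In both of these Stat5 windows CAGCTG lies within the aligned block described above, so it is part of that likeness and not a separate one. TTCCTG, an ETS motif, was found in the windows of Il2rg, of both Stat5a starts and of the upstream Stat5b start, and in 25.7% of all windows. CCAAT was found in the window of Jak1 and in 33.85% of all windows, and TATAAA in none of the 8 and in 12.4% of all windows. A match or its absence describes these letters only.

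Library 2 was set against library 1 for each gene by an exact binomial test (two-sided) on the counts, adjusted by the Benjamini-Hochberg method over all 17458 genes tested. It compares the libraries, not conditions, and takes reads as independent. Of the 7 genes 4 were called different at an adjusted p under 0.05, beside 25.1% of all genes tested and 37.4% of the genes whose counts summed to at least 1000. Il2ra, Il2rb and Jak1 were higher in library 1, and Il2rg was higher in library 2, beside 13.2% and 11.9% of all genes tested that were called higher in library 1 and in library 2. The differences were small. The log2 ratio of library 2 to library 1 was -0.19 for Jak1 (adjusted p = 5.36e-26 in the exact binomial test), -0.09 for Il2ra (adjusted p = 7.7e-05) and -0.04 for Il2rb (adjusted p = 0.0323). For Il2rg it was 0.06 (adjusted p = 8.9e-06). Jak3 (-0.15, adjusted p = 0.101), Stat5a (0.06, adjusted p = 0.517) and Stat5b (-0.02, adjusted p = 0.888) did not pass the exact test, with fewer counts behind them. The median absolute log2 ratio of the 7 genes was 0.06, against 0.10 over genes whose counts summed to at least 1000. An alternative, edgeR's exact test, used a common dispersion estimated from the same 2 libraries taken as replicates. The differences under test are thus part of its error term, so its calls cannot decide whether the libraries differ. With edgeR's exact test at the common dispersion, which allows for a variation of 13.0% beyond counting, 0 of the 7 genes and 2.1% of all genes passed. In that test 0 of the 7 had an unadjusted p under 0.05, beside 1595 of all 17458 genes tested.

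Each library was also deposited in a smaller gene table of whole-number counts on the GENCODE M4 annotation, with 3746426 and 3680387 counts over 22457 genes. There the order of the 7 genes was different. Il2rg, first in the larger table, had 742 and 734 counts and came behind Jak1 (5042 and 4625), Il2rb (3011 and 2978) and Il2ra (1407 and 1388). In counts scaled to the total of each table (CPM), Il2rg had 1750 ± 52.2 CPM in the larger and 199 ± 0.98 CPM in the smaller, 8.80-fold lower, while Jak3 stood 3.32 ± 0.02-fold higher than in the larger table. Stat5a had 394 and 416 counts and Stat5b 404 and 351, so that their order differed between the libraries. CPM are not per length, so they serve best to set each gene against itself. An order of different genes by counts or CPM, here and below, also reflects their lengths.

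The change of Il2rg lay near the edge of what other genes showed. Among 7701 genes with 200 or more counts in library 1, the median value in the smaller table was 1.66-fold that in the larger, and 4.12% of genes lay at or below the 0.116-fold of Il2rg. In library 2 these were 1.69-fold over 7737 genes and 4.11%. Il2rg had 18.5 and 19.4 counts per base of effective length in the larger table, at or above 99.0% of these genes in both. The tenth of genes with the most counts per base had a median of 0.80-fold and 0.82-fold. The highest count of any gene was 8145 and 7219 in the smaller table, against 395491 and 357843 in the larger. Gm20489, which holds Il2rg, had 1 and 0 counts in the smaller table. The part of the density of reads, or of the overlap with Gm20489, in the lower value of Il2rg was not tested.

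**Figure D4:**
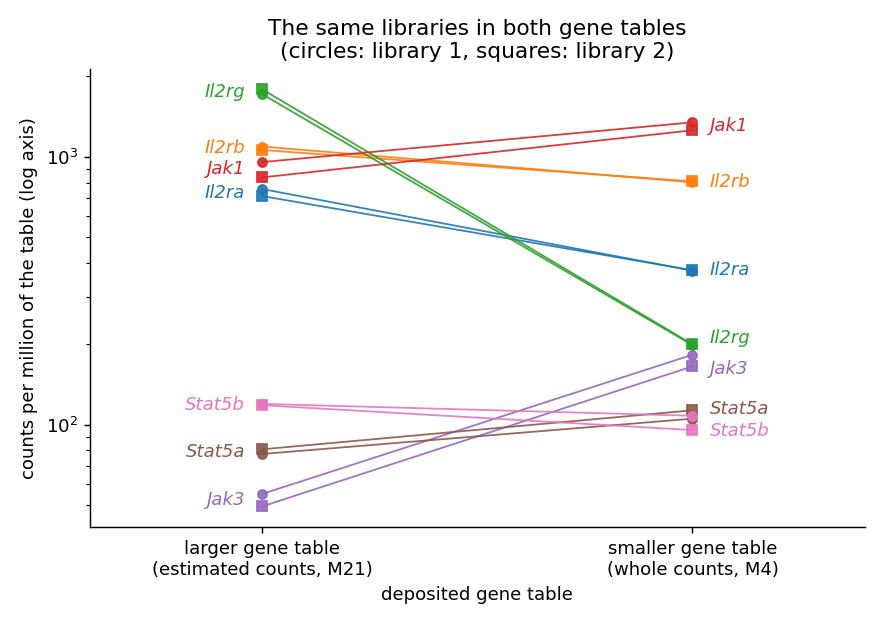
CPM (log axis) of the 7 genes in the larger gene table, left, and in the smaller one, right, each scaled to its own total, with library 1 as circles and library 2 as squares. The lines of Il2rg fall from 1750 to 199 and cross those of Il2rb, Jak1 and Il2ra, while those of Jak3 rise. The libraries stay close together in each table.

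The wider pathway was described by 6 lists with 50 genes, of which 43 were expressed and 38 also passed 5 TPM. The median over all 50, including those not expressed, was 29.3 TPM, and that of expressed protein-coding genes was 18.5 TPM. Of the 48 that could be tested, 21 were called different between the libraries in the exact binomial test, 15 of them higher in library 1, beside the 25.1% and 37.4% given above and 13.2% of all genes tested called higher in library 1. With edgeR's exact test 0 of the 48 were called, beside 2.1% of all genes tested. In that test 4 of the 48 had an unadjusted p under 0.05, beside 1595 of all 17458 genes tested.

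The cytokines that signal through the gamma chain were nearly absent. Of 6 ligand genes only Il4 was expressed, at 2.39 ± 0.15 TPM from 17 and 16 counts. Il2 itself stood at 0.59 and 0.75 TPM, from about 8 and 11 counts, and Il9 was listed at 0 in both libraries. At 0 counts the level may still be up to 3 counts (0.190 CPM in library 1, 0.186 CPM in library 2), a limit that covers counting error only. Il7 was called, with 11 counts in library 1 and 1 in library 2.

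All 5 other receptor chains that pair with the gamma chain were expressed. Il7r, the alpha chain of the IL-7 receptor, was highest at 205 ± 6.18 TPM, below Il2ra and Il2rb. Il4ra stood at 78.9 ± 3.92 TPM and Il21r at 67.8 ± 8.75 TPM, and the latter was called, higher in library 2. Il15ra, which presents IL-15 to the chains shared with the IL-2 receptor, stood at 20.4 ± 3.65 TPM and Il9r was lowest at 4.95 ± 0.88 TPM. By TPM none of the 5 reached the mean level of Il2ra, Il2rb or Il2rg. In the smaller gene table, whose counts are not per length, Il7r (483 CPM) and Il4ra (396 CPM) stood above Il2ra (376 CPM) and Il2rg (199 CPM). There Il21r (283 CPM) stood above Il2rg only, Il15ra (27.6 CPM) and Il9r (14.3 CPM) stood below both, and all 5 stood below Il2rb (806 CPM).

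All 6 of the other JAK and STAT genes listed were expressed. Of these 6 the highest was Stat6, which follows the IL-4 receptor, at 140 ± 16.0 TPM. Stat4 stood at 98.3 ± 9.43 TPM and Stat3 at 83.3 ± 7.71 TPM. Of the 6 only Jak2, at 16.3 ± 3.07 TPM, and Tyk2, at 27.9 ± 2.55 TPM, stood below Stat5b. Of the 6 genes 5, all but Stat2, were called different, all higher in library 1, beside 13.2% of all genes tested called in that direction. All 6 had counts that summed to at least 1000, and 37.4% of such genes were called in either direction. The share of such genes called higher in library 1 was not computed. With edgeR's exact test 0 of the 6 were called, as of the 7 genes above, beside 2.1% of all genes tested. In that test 0 of the 6 had an unadjusted p under 0.05, beside 1595 of all 17458 genes tested. The last 72 bases of Stat5a overlap Stat3 on the opposite strand, and the strand setting of the counting is not given in the sources used here.

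All 11 inhibitors were expressed, with a median of 30.0 TPM. Ptprc, the gene of the phosphatase CD45, was highest at 1057 ± 3.09 TPM. Cish, a STAT5-induced inhibitor of the receptor, stood at 75.8 ± 0.06 TPM, above Socs2 (30.0 ± 0.07 TPM) and Socs3 (28.6 ± 3.16 TPM), and Socs1 was lowest at 4.01 ± 1.53 TPM. Ptpn2, a phosphatase that acts on JAK1, JAK3 and STAT5, stood at 93.0 ± 4.03 TPM. Socs1, Socs2 and Socs3 were called higher in library 1, and Ptprc and Pias3 higher in library 2.

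Of 9 genes listed for the adaptor, MAPK and PI3K arm 7 were expressed. Lck, a Src family kinase of T cells, was highest at 1151 ± 0.47 TPM. Gab2 was lowest, with 8 counts in library 1 and 0 in library 2, and Syk, a kinase of B and myeloid cells, was also under 1 TPM. Pik3cd, the catalytic subunit of a leukocyte PI3 kinase, stood at 81.9 ± 9.14 TPM and Pik3r1, a regulatory subunit, at 72.2 ± 8.17 TPM. Sos1, Sos2 and Pik3cd were called higher in library 1, and Pik3r1 and Lck higher in library 2.

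All 13 genes listed as STAT5 targets were expressed, with a median of 58.2 TPM. Ccnd2, a D-type cyclin, was highest at 593 ± 24.5 TPM, followed by the kinase gene Pim1 at 366 ± 8.97 TPM. Bcl2, which protects cells from death, stood at 124 ± 0.94 TPM and Foxp3 at 39.7 ± 4.91 TPM. Bcl6, which STAT5 is known to repress, was lowest at 5.07 ± 0.62 TPM. Pim2, Myc and Ccnd3 were called higher in library 1 and Lta higher in library 2. These genes also have other inputs, and a level in 1 condition does not measure STAT5 activity.

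**Figure D5:**
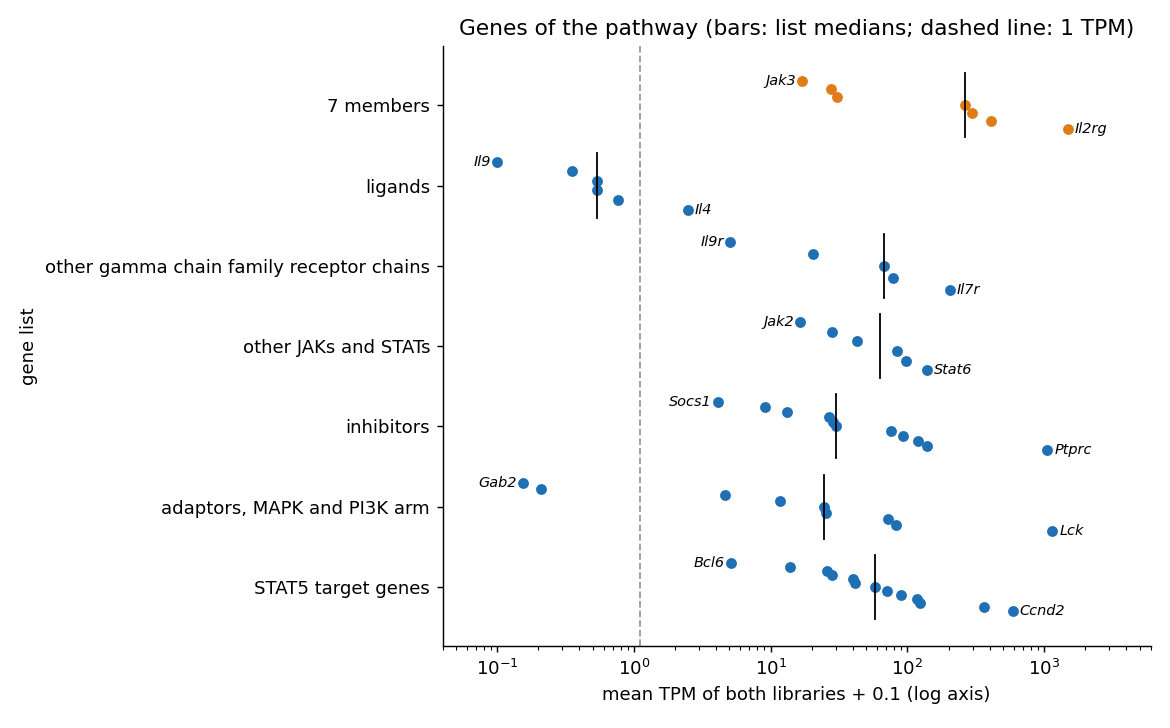
Mean TPM of both libraries plus 0.1 (log axis) of the 7 genes (orange) and of the 6 lists of other pathway genes (blue), each point a gene, with list medians as bars, the highest and lowest genes named and 1 TPM dashed. The ligands lie mostly left of the dashed line, while all genes of the receptor chain, JAK and STAT, inhibitor and target lists lie right of it.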

How the data were processed

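RNA-seq of polyA RNA from mouse regulatory T cells was deposited as 2 technical libraries of 1 biological sample. Each has a gene and a transcript table on mm10 with the GENCODE M21 annotation and a smaller gene table on GENCODE M4, per the deposited readme texts. The estimated counts, also called expected counts, are the authors' unscaled values. The deposited TPM was scaled by the authors over all features of a table, as was its posterior mean, and the deposited FPKM by length and depth. The percent of a gene's TPM per transcript and the signal bounds of its credible interval are deposited columns, per the file headers. The smaller table holds the authors' whole-number counts. Aligner, counter, versions, read length and strand setting: not given in the sources used here.

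Genes were joined to GENCODE M21 by identifier. Estimated counts were rounded and compared between libraries by an exact two-sided binomial test (SciPy 1.17.1) where both counts summed to at least 10, at library sizes scaled by TMM (edgeR 4.0.16, R 4.3.3), with Benjamini-Hochberg adjustment at 0.05. Log2 ratios carry a prior count of 0.5. 1 library on each side leaves no degrees of freedom for a quasi-likelihood fit. The test was tested on simulated data. DESeq2 1.42.0 size factors and edgeR's exact test were alternatives, the latter at a common dispersion estimated from both libraries taken as 1 group. Windows of 50 bases were compared between transcripts of all genes. Sequences were aligned with Biopython 1.88.

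Named were the 7 genes, transcripts at 10% or more in either library, and, of the pathway lists, the highest, the lowest and those called different. Stat5a-207, Stat5b-203, Jak3-203 and other named genes were added for description. A few genes of the lists are not reported here and were left out of the list counts. The genes and lists were chosen with earlier results of these data known.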

Additional observations from a re-analysis of the deposited data

How the results depend on the processing

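All 7 genes remained expressed at 5 and 10 TPM and by posterior mean TPM, and the leading transcripts were the same under every alternative tried. Of the 50 pathway genes 43 were expressed, 38 at 5 TPM and 44 by posterior mean TPM. The log2 ratio of Il2rb over Il2ra, 0.62, was 0.55 by estimated counts not divided by length, 1.10 in the smaller gene table and 1.04 over transcripts with the whole coding sequence only, an alternative chosen after seeing the data. That of Il2rg over Il2rb, 1.86, was 0.70, -2.02 and 1.61 under the same settings, reversed in the smaller table. That of Jak1 over Jak3, 4.13, was 4.10, 2.91 and 3.75, and 4.15 by posterior mean TPM. That of Stat5b over Stat5a, 0.16, was 0.58 by estimated counts and reversed to -0.10 in the smaller table. The shifts between estimated counts and TPM follow from the division by effective length, and the cause of the shifts in the smaller table was not tested. Leaving out a replicate gave 0.61 to 0.64 for Il2rb over Il2ra, 1.80 to 1.92 for Il2rg over Il2rb, 4.12 to 4.14 for Jak1 over Jak3 and 0.05 to 0.26 for Stat5b over Stat5a. The 4387 genes called different between the libraries became 367 with edgeR's exact test, 1537 when a 1.5-fold difference was also asked for and 1163 in the smaller table, and the 4 of the 7 genes became 0, 0 and 1 (Jak1, adjusted p = 0.0026 in the exact binomial test). Of the pathway genes, 21 called became 0, 2 and 6 under the same 3 settings, which were added for these genes after seeing the data. Under these settings 2.1%, 8.8% and 10.4% of all genes tested were called, beside 25.1% in the main setting. The 10.4% is of 11149 genes tested, and the other shares are of 17458. How many of the pathway genes were among those 11149 is not given here. Without a filter on low counts Il2rb was no longer called (adjusted p = 0.0524 in the exact binomial test). The dispersion of edgeR's exact test came from these same libraries, so its lower numbers of calls decide nothing about their difference. No paired analysis was possible because both libraries belong to 1 group.

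The libraries are technical replicates of 1 mouse, so the spread between animals is unknown. Transcript shares are model estimates, as is the split of reads from windows shared by Stat5a and Stat5b or by Jak3 and Insl3. The share of Stat5a-203 rests on 49 windows of its own. At this depth the deposited intervals did not separate the levels of the Stat5 genes.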

Other observations

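Some annotated genes overlap Il2ra, Jak1 or Jak3 and were given estimated counts. Gm37881, an annotated gene of 421 bases, lies inside Il2ra on the same strand. It had 136 and 137 estimated counts (29.4 and 28.2 TPM), about as many as Il2ra-203, a retained intron of Il2ra with 124 and 112 counts. Insl3, whose product is a peptide hormone of the testis and ovary, was given 23.5 and 18.2 TPM from 168 and 137 counts, and its whole length lies in Jak3 on the same strand. The smaller gene table gave Insl3 99 and 93 counts. Raver2, on the opposite strand and overlapping Jak1 by 4 bases, had 127 and 124 counts.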
